A study of Homo sapiens with 12 samples.

Results

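The comparison described here sets 3 arrays of cells given Wee1 inhibitor II followed by 17-AAG against 3 arrays of cells given Wee1 inhibitor II alone. It covers the genes whose geometric mean signal reached 100 in either of these groups, 8729 of the 19775 genes measured. In 8069 of them both groups reached 100, in 317 the group with the inhibitor alone did, and in 343 the group with both drugs did. The cut at 100 ran through a continuum: ELOA-AS1 entered with signals of 100.1 and 86.0 (inhibitor alone and both drugs), and CCNO stayed out with 99.9 and 85.9.

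The series holds 12 Affymetrix 3-prime expression arrays in 4 groups of 3, all labelled PC3, a prostate cancer line: control, Wee1 inhibitor II, 17-AAG, and both drugs. All samples of both groups compared had received the Wee1 inhibitor at 2.5 µM, and the labels give vehicle to the controls. In the combination, 17-AAG at 40 nM followed after 24 h, and the protocol harvests cells 48 h after 17-AAG. The title puts the study's question as sensitisation of prostate cancer cells to Hsp90 inhibition through Wee1, with the intrinsic apoptotic route as the readout.

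Wee1 is a kinase that phosphorylates CDK1 and keeps it inactive until a cell is ready for mitosis, so an inhibitor removes a brake on entry into mitosis. 17-AAG occupies the ATP pocket of Hsp90, a chaperone that keeps many kinases, receptors and transcription factors folded, Wee1 among them. Blocking Hsp90 is known to release heat shock factor 1, which induces chaperone genes, and to destabilise kinases of the growth factor pathways.

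The transcripts on these 6 arrays went against the PC3 label. All 8 measured pigment cell markers, such as the melanosome protein genes MLANA and PMEL, had signals of 100 or more on all 6 arrays, with a summed signal of 29880 to 32290 with the inhibitor alone and 51060 to 52390 with both drugs. CTNNA1 and STAT3, which are homozygously deleted in PC3, had signals of 2559 to 5040 and 909 to 1296. Of 8 measured prostate lineage markers 7 were under 100 on all 6 arrays, with HOXB13 at most at 10.8, and so were 10 of 12 epithelial markers, with EPCAM at most at 16.4. All 6 measured blood cell markers and all 5 endothelial markers were under 100, as were 7 of 9 fibroblast markers. By contrast, control replicate 2 showed HOXB13, a homeobox gene of the prostate, at 2087 and MLANA at 2.67; it is an array the submitters left out and that enters no comparison here. The cells are therefore called by their label without further claim. Which cells gave the RNA was not tested.

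The 6 arrays were close to each other. Pearson's r of log2 signals across the 19775 genes was 0.948 to 0.954 within a group and 0.941 to 0.948 between groups. Across all 54675 probe sets it was lower, 0.924 to 0.934 and 0.916 to 0.926. The median SD between replicates was 0.07 (log2) above a signal of 1024, 0.10 from 256 to 1024 and 0.16 from 64 to 256, but 1.01 below 16. The gap between the 3-prime and 5-prime probe sets of ACTB, a sign of RNA quality, was 0.68 ± 0.09 (log2, SD, n = 3) with the inhibitor alone and 0.96 ± 0.05 (n = 3) with both drugs, and its part in the results below was not tested. The same gap of GAPDH was -0.05 ± 0.04 and -0.01 ± 0.02.

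After 17-AAG was added, genes of mitosis and DNA replication fell, together with genes that growth factor and inflammatory signals induce, while pigment cell genes and some chaperone genes rose. In limma, 1632 of the 8729 genes passed an adjusted p under 0.05, with 790 higher and 842 lower. That is 18.7% of these genes (9.05% higher and 9.65% lower), against 9.82% of all genes tested (4.79% higher and 5.03% lower), and every later count is to be read against these shares. Of the 1632, 265 were among the 660 genes that reached the signal cut in 1 group only. Such genes entered through the group where their signal was higher, and CEMIP, GALNT3, MET, TRPM1, CXCL8 and DKK1 were among them. Of the 8069 genes that reached the cut in both groups, 673 were called higher and 694 lower. All 1632 had signals that did not overlap between the groups, which 54.9% of the 8729 genes had (29.5% higher and 25.4% lower), and 33.0% of all genes (17.1% higher and 15.8% lower). Falls were the larger changes: 325 genes fell and 149 rose by at least 2-fold, and 32 fell and 19 rose by at least 4-fold. The median log2 fold change was 0.03 over these genes and 0.01 over all 19775. Leaving out 1 array lowered the count to 725, 698 and 590 without replicates 1, 2 and 3 of the inhibitor alone, and to 543, 621 and 555 without replicates 1, 2 and 3 of both drugs. All 1632 kept their direction in each of these fits, which the lack of overlap between the groups fixed in advance. A fit with the replicate number as a block called 0 genes. The labels do not say whether replicates came from separate cultures, and the p-values then measure only how far these samples spread, possibly for technical reasons.

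**Figure D1:**
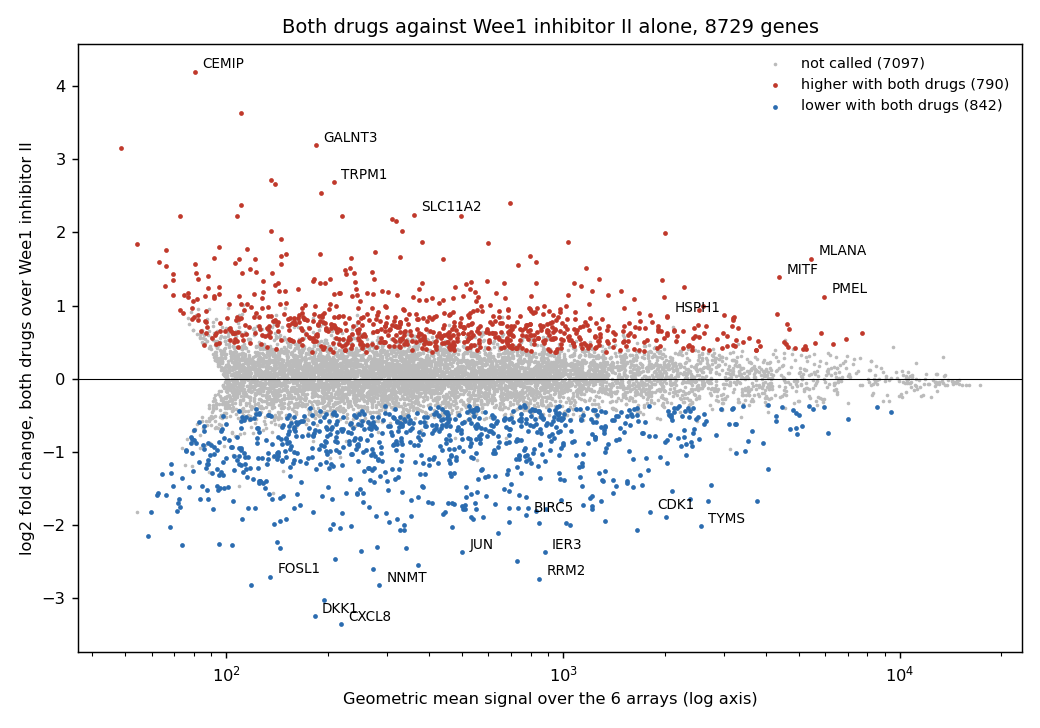
Log2 fold change of both drugs over Wee1 inhibitor II alone (vertical axis) against the geometric mean signal over the 6 arrays (log axis) for 8729 genes, 1 point per gene. Red points are the 790 genes higher and blue points the 842 genes lower at an adjusted p under 0.05, and grey points the rest; the lowest points, CXCL8 and DKK1, lie below -3, and CEMIP lies above 4.

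The largest rise was that of CEMIP, which codes for a protein that breaks down hyaluronan. Its signals were 19.7, 15.8 and 21.4 with the inhibitor alone and 346, 391 and 303 with both drugs. The log2 fold change was thus 4.19 ± 0.16 (± SE here and below, adjusted p = 0.0026). The lower signals lie near the array medians of 20.5 to 23.1, where values are rough, so the size of this fold is uncertain while the groups stand far apart. GALNT3, an enzyme that starts O-linked glycosylation, had signals of 65.1, 56.1 and 62.3 against 614, 525 and 537 (3.19 ± 0.11, adjusted p = 0.0026). The iron transporter gene SLC11A2 rose from 162, 170 and 165 to 739, 764 and 851 (2.24 ± 0.09, adjusted p = 0.0026). MET, the receptor for hepatocyte growth factor and an Hsp90 client, rose from 68.3, 58.6 and 37.4 to 368, 378 and 304 (2.71 ± 0.26, adjusted p = 0.0067). In each of these genes the lowest array with both drugs lay above the highest with the inhibitor alone. The other 8 of the 12 largest rises were TSPAN10 (3.63), UBAP1L (3.15), TRPM1 (2.68), PPARGC1A (2.67), SEMA6A (2.53), VEPH1 (2.40), PRDM7 (2.37) and SUOX (2.23), all given as log2 fold changes. UBAP1L lost its call in 5 of 6 fits that left out an array and SEMA6A in 3, and the calls of MET, TSPAN10, PPARGC1A and VEPH1 ended when all probe sets of a gene were averaged.

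CXCL8, the neutrophil chemokine interleukin 8, fell the most. It had signals of 705, 753 and 648 with the inhibitor alone and 62.2, 72.0 and 71.8 with both drugs (-3.35 ± 0.11, adjusted p = 0.0026). DKK1, a secreted antagonist of Wnt signalling, went from 492, 688 and 525 to 61.9, 48.2 and 70.3 (-3.24 ± 0.21, adjusted p = 0.0032). NNMT, which methylates nicotinamide, went from 748, 741 and 779 to 94.1, 111 and 117 (-2.82 ± 0.11, adjusted p = 0.0026). All 3 genes were left with signals of at most 117 on every array with both drugs. RRM2, the regulated subunit of ribonucleotide reductase, fell from 2105, 2462 and 2026 to 323, 343 and 323 (-2.73 ± 0.11, adjusted p = 0.0026). IER3, an early response gene, fell from 2034, 1876 and 2097 to 391, 383 and 388 (-2.37 ± 0.08, adjusted p = 0.0026). The 12 largest falls further held the cell cycle genes IQGAP3 (-3.02) and E2F8 (-2.82), the AP-1 subunit gene FOSL1 (-2.70), the TWEAK receptor gene TNFRSF12A (-2.54), the adhesion genes NTM (-2.60) and NRCAM (-2.46), and DEPDC7 (-2.49), all log2 fold changes. No call among these 12 genes was lost when any 1 array was left out.

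**Figure D2:**
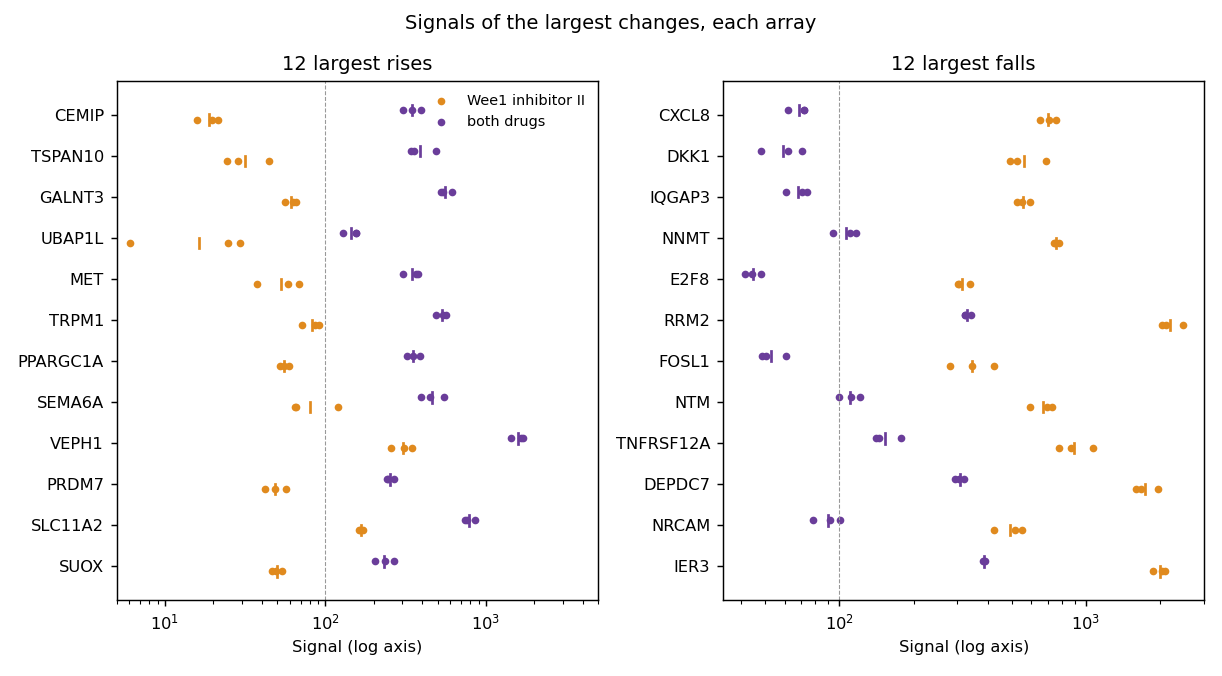
Signal on each array (log axis, 1 point per array, vertical tick at the geometric mean) of the 12 genes that rose most and the 12 that fell most, with Wee1 inhibitor II alone in orange and both drugs in purple; the dashed line marks a signal of 100. In all 24 genes the arrays of the groups do not overlap.

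Genes of mitosis fell almost without exception. Of the 62 listed, 61 reached a signal of 100, and 59 of these fell and 0 rose in limma (60 and 0 at an unadjusted p under 0.05), where 9.65% of all genes considered fell. Their median log2 fold change was -1.58, and the range over the 61 ran from -2.07 to 0.06. The members not called were TACC3, a spindle protein gene (-1.57, adjusted p = 0.051), and INCENP, the scaffold of the chromosomal passenger complex (0.06, adjusted p = 0.86). With any 1 array left out, 55 to 58 members fell. Members of the lists below are likewise those genes that reached a signal of 100. RNA of a whole culture was measured, so fewer dividing cells and less RNA per dividing cell cannot be told apart.

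Among the mitosis genes with the smallest p-values, KIF4A, a kinesin that works on chromosomes and the central spindle, fell from 539, 572 and 574 to 156, 160 and 158. PRC1, which bundles the microtubules of the central spindle, fell from 2242, 2287 and 2262 to 662, 639 and 671. ESPL1, the protease separase that frees sister chromatids, fell from 404, 443 and 405 to 111, 119 and 120. NCAPG, a condensin subunit gene, fell from 904, 966 and 927 to 272, 264 and 278. The log2 fold changes were -1.83 ± 0.07 for KIF4A, -1.78 ± 0.07 for PRC1, -1.84 ± 0.08 for ESPL1 and -1.78 ± 0.08 for NCAPG (adjusted p = 0.0026 each). The 4 genes span a wide range of signals at closely similar fold changes.

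A short sequence lay in most promoters of the fallen mitosis genes, and is shown here because the list moved so uniformly. The cell cycle genes homology region, TTTGAA, is an element known from promoters of genes expressed late in the cell cycle. It was searched on both strands of RefSeq promoter windows (GRCh38.p14) from 250 bases before to 50 bases after the annotated start, after the calls had been seen. It lay in 37 of the 50 fallen mitosis genes with a window, which is 74%, against 11.9% of the windows of all 15384 genes that had one, 19.5% of genes lower and 10.6% of genes higher with both drugs. In these 37 the match nearest the start had its first base between 151 bases upstream and 40 bases downstream, at a median of 20 bases upstream, and in 28 of them it lay from 60 bases upstream to 20 downstream. The windows below run 5′ to 3′ on the strand of the gene, with the element in capitals, for KIF4A (chrX:70290044-70290101, plus strand, 34 bases upstream), PRC1 (chr15:90994524-90994581, minus strand, 20 bases), ESPL1 (chr12:53268242-53268299, plus strand, 31 bases), NCAPG (chr4:17810918-17810975, plus strand, 35 bases) and PLK1 (chr16:23678834-23678891, plus strand, 29 bases), the last for a kinase of mitotic entry.
KIF4A: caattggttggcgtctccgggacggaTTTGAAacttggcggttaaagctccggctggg
PRC1: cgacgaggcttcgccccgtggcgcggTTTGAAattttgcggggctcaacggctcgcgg
ESPL1: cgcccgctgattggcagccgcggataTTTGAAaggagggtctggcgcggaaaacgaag
NCAPG: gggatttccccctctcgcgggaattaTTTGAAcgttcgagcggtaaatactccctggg
PLK1: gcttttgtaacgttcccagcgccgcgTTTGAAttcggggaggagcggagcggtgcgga

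The kinases and phosphatases of the G2 checkpoint, the machinery on which a Wee1 inhibitor acts, fell as well. Of 28 measured genes 23 reached a signal of 100, and 12 of these fell and 1 rose, with a median log2 fold change of -0.66; 8 to 12 fell and 0 or 1 rose with any 1 array left out. CDK1, the kinase that drives mitosis, had signals of 3784, 2772 and 3746 with the inhibitor alone and 1102, 965 and 837 with both drugs (-1.82 ± 0.18, adjusted p = 0.0071). Its partner CCNB1, cyclin B1, fell from 2526, 2553 and 2482 to 999, 935 and 931 (-1.40 ± 0.08, adjusted p = 0.0029). WEE1 itself, the gene of the inhibited kinase, fell from 867, 992 and 999 to 362, 401 and 371 (-1.33 ± 0.10, adjusted p = 0.0040). All 3 were lower on every array with both drugs than on any array with the inhibitor alone.

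PKMYT1, the membrane-bound relative of WEE1, fell by 0.96 on the log2 scale, and CDC25B, a phosphatase that reverses Wee1's mark, by 0.82. The first call was lost in 4 of 6 fits that left out an array, and the second without replicate 1 of both drugs. Cyclin genes CCNA2 (-1.61 ± 0.10) and CCNB2 (-1.31 ± 0.07) and the kinase gene PLK1 (-1.36 ± 0.09) fell too. The member that rose was ATM, the kinase that senses double-strand breaks (0.73 ± 0.09, adjusted p = 0.012), named after its value was seen. CDC25A and CDC25C had mean signals under 100 in both groups and lie outside the genes considered.

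Replication and G1/S genes formed the next large block. Of 56 measured genes 55 reached a signal of 100, and 40 of these fell and 0 rose, with a median log2 fold change of -0.85, and 25 to 28 fell with any 1 array left out. Beside RRM2 and E2F8, TYMS, which makes thymidylate, fell from 5059, 5604 and 4820 to 1287, 1202 and 1346 (-2.01 ± 0.10, adjusted p = 0.0026). PRIM1, the catalytic primase subunit, fell from 614, 661 and 668 to 207, 218 and 208 (-1.62 ± 0.08, adjusted p = 0.0026). CCND1, cyclin D1, showed a smaller fall of 0.51 (log2), a call that each of the 6 fits without 1 array lost. Among the 15 members not called were all 5 of the ORC subunits 2 to 6, which mark replication origins, with log2 fold changes from -0.34 (ORC3) to 0.30 (ORC5), chosen after their values were seen.

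The E2F site TTTCCCGC, bound by the factors that switch on S phase genes, was found on either strand in 9 of 32 fallen replication promoters with a window, which is 28.1%, against 2.18% of all windows and 5.09% of those of genes lower with both drugs. The windows of TYMS (chr18:657588-657647, plus strand, 39 bases upstream), PCNA, the sliding clamp gene (chr20:5126648-5126707, minus strand, 59 bases), and UHRF1, a gene of DNA methylation maintenance (chr19:4909461-4909520, plus strand, 14 bases), are shown for this element, which reads as its reverse complement on the strand of each gene and is in capitals.
TYMS: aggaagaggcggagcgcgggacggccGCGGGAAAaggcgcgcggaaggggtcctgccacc
PCNA: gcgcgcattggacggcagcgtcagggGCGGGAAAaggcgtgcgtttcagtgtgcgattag
UHRF1: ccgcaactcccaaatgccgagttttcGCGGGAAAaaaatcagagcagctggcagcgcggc

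PCNA fell from 2260, 2501 and 2339 to 1138, 1112 and 1066, and UHRF1 from 1142, 1494 and 1205 to 340, 398 and 390; both were picked for their promoters. Recombination and Fanconi repair genes fell in 11 of 20 members and rose in 0, and 6 to 8 fell with any 1 array left out. The median log2 fold change was -0.74 over the 20 and -0.48 over all 28 measured. Of the 20 members 7 reached 100 in 1 group only. The exonuclease gene EXO1 changed by -1.76 ± 0.11, BARD1, the partner of BRCA1, by -1.65 ± 0.09, FANCI by -1.55 ± 0.10 and the ubiquitin-conjugating enzyme gene UBE2T by -1.30 ± 0.09 (adjusted p = 0.0029 to 0.0034). Of 12 CDK inhibitor, D cyclin and RB family genes 4 fell and 0 rose, 1 to 3 without an array.

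**Figure D3:**
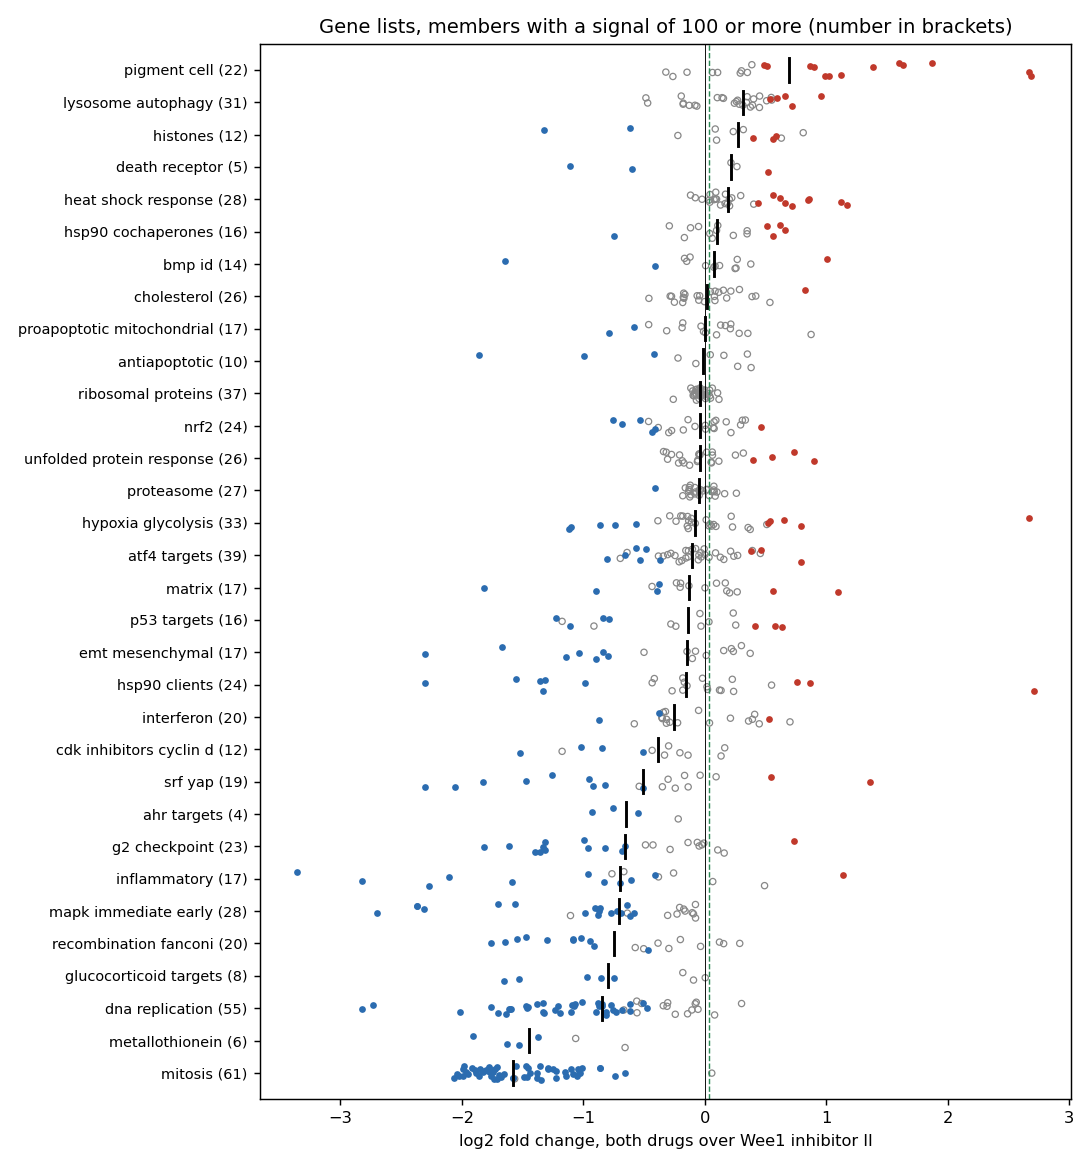
Log2 fold change of both drugs over Wee1 inhibitor II alone for the genes of 32 lists with a signal of 100 or more (number in brackets), ordered by list median (black bar). Filled points passed an adjusted p under 0.05, red for genes that rose and blue for genes that fell, open points did not pass, and the green dashed line is the median of all 8729 genes; mitosis lies lowest at -1.58 and pigment cell genes highest at 0.69.

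Pigment cell genes rose with both drugs. Of 23 measured genes 22 reached a signal of 100, and 13 of these rose and 0 fell, where 9.05% of all genes considered rose. The median log2 fold change was 0.69 over the 22 and 0.51 over the 23; 10 or 11 rose with any 1 array left out. The list was drawn up in earlier work on these samples and is not independent evidence of its direction. The melanosomal antigen gene MLANA had signals of 3198, 2865 and 3232 with the inhibitor alone and 9373, 9916 and 9536 with both drugs (1.63 ± 0.09, adjusted p = 0.0029). TRPM1, a cation channel of pigment cells, rose from 71.5, 85.5 and 91.4 to 490, 536 and 561 (2.68 ± 0.13, adjusted p = 0.0026). SLC45A2, a melanosome transporter gene, rose from 554, 478 and 601 to 2084, 1846 and 2006 (1.87 ± 0.12, adjusted p = 0.0032). On all 3 genes every array with both drugs lay at least 2-fold above every array with the inhibitor alone.

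MITF, the transcription factor that commands the pigment programme, had signals of 3059, 2455 and 2652 against 7118, 6941 and 7219 (1.39 ± 0.11, adjusted p = 0.0045). PPARGC1A, which switches on mitochondrial genes and which MITF is known to induce in pigment cells, rose from 52.1, 55.2 and 59.6 to 321, 388 and 350. The pigment enzyme genes TYR (0.39, adjusted p = 0.12) and TYRP1 (0.30, adjusted p = 0.071), the lineage factor SOX10 (0.29, adjusted p = 0.19) and S100B (-0.32, adjusted p = 0.065) did not pass. The 13 members that rose ranged from 0.49 (CDH19) to 2.68 (TRPM1). The MITF motif called the M-box, TCATGTG, lay on either strand in 1 of the 9 risen members with a promoter window, GPR143, against 2.22% of all windows.

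Genes that MAPK signalling induces, the immediate early genes, moved downward. Of 30 measured genes 28 reached a signal of 100, all 28 with log2 fold changes below 0. Of these 17 fell and 0 rose, with a median log2 fold change of -0.71, and the count was 8 to 12 with any 1 array left out. JUN, an AP-1 subunit, had signals of 1219, 926 and 1309 with the inhibitor alone and 219, 215 and 228 with both drugs (-2.37 ± 0.15, adjusted p = 0.0033). The zinc finger factor gene KLF4 fell from 813, 675 and 810 to 146, 150 and 164 (-2.32 ± 0.11, adjusted p = 0.0026). SPRY2, a feedback inhibitor of receptor tyrosine kinase signalling, fell from 2484, 2322 and 2422 to 901, 818 and 740 (-1.56 ± 0.10, adjusted p = 0.0033). The groups did not overlap in any of these 3 genes.

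Of 37 measured inflammatory and NF-kB target genes only 17 reached a signal of 100, and 10 of these fell and 1 rose (7 to 9 fell with any 1 array left out). The median log2 fold change was -0.70 over the 17 and -0.46 over the 37. Of the 17 members 5 reached 100 in 1 group only, CXCL8 and SOCS3 among them. Beside CXCL8 and NNMT, SOCS3, a feedback inhibitor of cytokine signalling, fell from 227, 236 and 221 to 41.2, 44.4 and 57.7 (-2.27 ± 0.15, adjusted p = 0.0033). SERPINA3, an acute phase protease inhibitor, fell from 1444, 1165 and 1408 to 299, 311 and 317 (-2.11 ± 0.11, adjusted p = 0.0029). The member that rose was TNFAIP3, which encodes the NF-kB inhibitor A20 (1.13 ± 0.11, adjusted p = 0.0075), named after its value was seen. Of 20 interferon response genes 1 rose and 2 fell, against 0 and 0 or 1 with any array left out.

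The list of SRF and YAP targets and regulators holds actin cytoskeleton genes among others. Of its 19 members 9 fell and 2 rose, and 5 to 7 fell with any 1 array left out. The median log2 fold change was -0.51 over the 19 and -0.31 over all 26 measured. The matricellular genes CCN1 and CCN2 fell from 3103, 3819 and 3239 to 874, 796 and 761 and from 322, 353 and 349 to 94.5, 101 and 93.6. Tropomyosin 1, TPM1, changed by -1.47 ± 0.09 (adjusted p = 0.0031). The receptor kinase gene AXL, which stands in this list, among mesenchymal genes and among Hsp90 clients, fell from 548, 720 and 609 to 121, 125 and 133 (-2.30 ± 0.13, adjusted p = 0.0029), a call that ended with the mean of its probe sets. Of 17 mesenchymal genes 7 fell and 0 rose, among them THBS1 (-1.67), LOXL2 (-1.04) and TNC (-0.89). Matrix genes showed 4 falls and 2 rises among 17, with MMP1 at -1.82 and LUM at 1.10, but 1 or 2 falls and 1 rise without any 1 array.

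Metallothionein genes, which buffer zinc and copper, had 4 falls and 0 rises among 6 members (median -1.45, and -1.01 over all 10 measured). MT2A fell from 3285, 4044 and 3473 to 1197, 1282 and 1252, and MT1X from 1948, 2452 and 1990 to 656, 723 and 676. MT1H changed by -1.91 ± 0.19, and MT1G by -1.37 ± 0.24, a call lost in 5 of 6 fits without 1 array; the mean of its probe sets turned its sign (0.09). These genes are near-identical copies, so a probe set may read its neighbours. Of 13 measured glucocorticoid target genes 8 reached a signal of 100 and 5 of these fell, against 3 without any 1 array of both drugs and 4 without any 1 of the inhibitor alone. The median log2 fold change was -0.80 over the 8 and -0.18 over the 13. KLF9 changed by -1.65 ± 0.10 and TSC22D3 by -0.97 ± 0.09 (adjusted p = 0.0032 and 0.0067). The call of TSC22D3 ended when all 11 arrays shared the spread (adjusted p = 0.069) and when its probe sets were averaged (adjusted p = 0.21). Of 4 genes of the aryl hydrocarbon receptor and its targets 3 fell. The receptor gene AHR changed by -0.93 ± 0.08 and the target NQO1 by -0.75 ± 0.07 (adjusted p = 0.0055 and 0.0070). NQO1 also stands in the NRF2 list. AHRR, the third, lost its call in all 6 fits that left out an array.

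Chaperone genes moved upward by less. Of 28 measured heat shock response genes 9 rose and 0 fell, with a median log2 fold change of 0.19, and 2 to 4 rose with any 1 array left out. HSPH1, an Hsp110 chaperone, had signals of 1485, 1502 and 1547 with the inhibitor alone and 2637, 2742 and 2852 with both drugs (0.86 ± 0.08, adjusted p = 0.0058). The small heat shock protein gene HSPB8 rose from 452, 506 and 489 to 902, 858 and 843 (0.85 ± 0.08, adjusted p = 0.0073). CHORDC1, an Hsp90 partner, rose from 768, 745 and 742 to 1145, 1156 and 1276 (0.66 ± 0.08, adjusted p = 0.013), and HSPA4L changed by 1.17 ± 0.15 (adjusted p = 0.015). The last of these calls was lost in 4 of 6 fits that left out an array, and that of CHORDC1 in 5.

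The Hsp90 genes themselves did not pass. HSP90AA1, the inducible form, had signals of 9814, 10801 and 10407 against 11960, 12754 and 11458 (0.22 ± 0.09, adjusted p = 0.21). HSP90AB1, the constitutive form, stood at 0.09 ± 0.07 (adjusted p = 0.54), HSF1, the heat shock factor gene, at 0.20 ± 0.15 (adjusted p = 0.49) and DNAJB1, a classic target of it, at 0.29 ± 0.08 (adjusted p = 0.090). DNAJB1 was higher on all 3 arrays with both drugs, 874, 885 and 908, than on those with the inhibitor alone, 737, 685 and 754. HSPA1A and HSPA8 were not analysed here. The heat shock element GAANNTTC lay on either strand in 2 of 7 risen members with a promoter window, CHORDC1 and HSPB8, against 5.56% of all windows. It is shown in capitals in the window of CHORDC1 (chr11:90223066-90223125, minus strand, 50 bases upstream), 5′ to 3′ on the strand of the gene.
CHORDC1: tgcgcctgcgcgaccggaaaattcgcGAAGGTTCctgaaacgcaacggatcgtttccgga

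Hsp90 co-chaperones had 4 rises and 1 fall among 16 members, against 0 or 1 of each with any 1 array left out. FKBP4 rose (0.56), while FKBP5, a relative that glucocorticoids induce, fell (-0.75), calls lost in 6 and 5 of the 6 fits without 1 array. Of 24 genes of Hsp90 client proteins 3 rose and 6 fell, with MET rising and AXL, PLK1, WEE1 and HIF1A (-0.99 ± 0.08, adjusted p = 0.0050) among those that fell. Loss of a client from an inhibited chaperone is a change of protein, which these arrays do not measure. Without any 1 array, 1 to 3 clients rose. Unfolded protein response genes rose in 4 of 26 and fell in 0 (0 to 2 rose without any 1 array), and the proteasome had 1 fall among 27, PSMC3, which each of those 6 fits lost. In limma 0 of 37 ribosomal protein genes passed and 1 had an unadjusted p under 0.05, with log2 fold changes from -0.26 to 0.12. The 38 measured genes of this list were cytosolic ones but for the mitochondrial MRPL13 and MRPL23.

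The intrinsic apoptotic pathway, which the title names, was measured here as RNA only. Of 17 pro-apoptotic genes of the mitochondrial pathway 0 rose and 2 fell (11.8%) in limma, where 9.05% of all genes considered rose and 9.65% fell. At an unadjusted p under 0.05, 3 were higher and 4 lower, where 3500 of the 8729 genes had such a p. The count of falls does not set this list apart. PMAIP1, which encodes the BH3-only protein NOXA, fell from 742, 826 and 779 to 462, 439 and 460 (-0.79 ± 0.08, adjusted p = 0.0082), and HTRA2 fell by 0.59 (log2), a call lost in 5 of 6 fits without 1 array. BCL2L11, which encodes BIM, had signals of 242, 137 and 177 against 297, 331 and 368 (0.87 ± 0.24, adjusted p = 0.092). The effectors BAX (-0.03, adjusted p = 0.90) and BAK1 (0.17, adjusted p = 0.57), and BID (-0.19), CASP9 (-0.31), APAF1 (0.28), CYCS (0.21) and DIABLO (-0.01), did not pass either. BBC3 was not analysed here.

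Of 10 anti-apoptotic genes 3 fell and 0 rose. BIRC5, survivin, which also works in mitosis and stands in that list, fell from 1456, 1543 and 1448 to 406, 435 and 383 (-1.86 ± 0.09, adjusted p = 0.0026). BIRC2, an inhibitor of apoptosis protein, fell from 1739, 2006 and 1898 to 917, 902 and 1013 (-0.99 ± 0.10, adjusted p = 0.0071). MCL1 fell from 1155, 1272 and 1171 to 867, 897 and 921 (-0.42 ± 0.08, adjusted p = 0.040), and each of the 6 fits without 1 array lost that call. BCL2 (0.27, adjusted p = 0.11), BCL2L1 (-0.07, adjusted p = 0.86) and XIAP (0.38, adjusted p = 0.097) did not pass. Among 16 p53 target genes 3 rose and 4 fell, the latter PMAIP1, DDB2 (-1.22), GADD45A (-0.84) and the death receptor gene FAS (-1.11); GADD45A lost its call in all 6 such fits and FAS in 5, and 0 rises and 2 or 3 falls were left in the list. Of 5 death receptor genes 1 rose, FADD (0.52), and 2 fell, FAS and TNFRSF1A (-0.60); without any 1 array 0 rose and 0 or 1 fell.

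Metabolic and stress lists divided. ATF4 targets, genes induced when amino acids run short, had 3 rises and 6 falls among 39 (median -0.10), but 0 or 1 of each with any 1 array left out; ATF3 changed by -0.80 ± 0.09 and the amino acid transporter gene SLC7A5 by 0.79 ± 0.10, calls lost in 2 and 4 of these 6 fits. Of 26 cholesterol and lipid synthesis genes 1 rose, the desaturase gene SCD, from 2424, 2359 and 2428 to 4221, 4212 and 4325 (0.82 ± 0.07, adjusted p = 0.0054). Hypoxia and glycolysis genes had 5 rises and 5 falls among 33, with NDRG1 at -1.12 ± 0.09 and the glucose transporter gene SLC2A3 at -0.86 ± 0.08 (adjusted p = 0.0046 and 0.0070), and 1 or 2 rises and 3 falls with any 1 array left out. NRF2 and oxidative stress genes had 1 rise and 5 falls among 24, and 1 or 2 falls with any 1 array left out, and NFE2L2, which encodes NRF2, changed by -0.69 ± 0.08 (adjusted p = 0.010; lost in 4 of 6 such fits). Lysosome and autophagy genes rose in 5 of 31 and fell in 0, with the protease gene CTSL rising from 591, 549 and 581 to 1188, 1127 and 1024, and 1 or 2 rose with any 1 array left out. Among 12 histone genes 3 rose and 2 fell, the clearest being H2AX, the histone marked at DNA breaks (-1.32 ± 0.10, adjusted p = 0.0045), and 1 fell and 0 rose with any 1 array left out.

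Among the ID genes, which encode inhibitors of basic helix-loop-helix factors and respond to BMP signals, ID2 and ID1 moved in opposite directions. ID2 had signals of 405, 424 and 455 with the inhibitor alone and 862, 863 and 856 with both drugs (1.01 ± 0.08, adjusted p = 0.0046). ID1 had 140, 150 and 152 against 55.2, 49.2 and 38.7 (-1.64 ± 0.15, adjusted p = 0.0065). Neither overlapped between the groups. ID1 reached a mean signal of 100 only with the inhibitor alone. ID3 and ID4, also measured, were not among the called members. In the whole BMP and ID list of 14 members 1 rose and 2 fell, the other fall being the receptor gene ACVR1 (-0.41), a call lost in all 6 fits without 1 array.

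Set beside 17-AAG without the inhibitor, the change that 17-AAG made after it was of another size in many genes. The difference of the 2 effects, both drugs minus the inhibitor alone against 17-AAG minus control, passed limma's test in 2024 of the 8729 genes, 834 above 0 and 1190 below 0. That is 23.2%, with 9.55% above 0 and 13.6% below 0, against 11.8% of all genes tested, 4.82% above 0 and 7.01% below 0. The effects share no array, and the second rests on 2 control arrays. Among the 24 genes of largest change 21 passed. These genes were picked by the size of the first effect, which is part of the difference tested. That count was thus partly set by the choice of genes and is no support for a difference. CEMIP changed by 4.19 after the inhibitor and by 0.34 ± 0.25 (log2) for 17-AAG alone, and SLC11A2 by 2.24 and 0.04 ± 0.09. CDK1 changed by -1.82 after the inhibitor and by 0.19 ± 0.18 without it, and WEE1 by -1.33 and 0.03 ± 0.11.

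Of the 61 mitosis genes 52 had a difference that passed, all 52 below 0, and their median log2 fold change was -1.58 after the inhibitor and -0.31 for 17-AAG alone. Of the 28 MAPK genes 23 passed below 0, with medians of -0.71 after the inhibitor and 0.44 alone. Heat shock response genes passed above 0 in 14 of 28, with medians of 0.19 and -0.36. On the arrays labelled 17-AAG, DNAJB1 had signals of 480, 564 and 490 against 1197 and 1186 in control, a fall where Hsp90 inhibitors are known to induce this gene. Whether the labels of these groups are right was not tested, and each difference above rests on them. Without control replicate 1, control replicate 3 or 17-AAG replicate 1, the number of genes that passed was 1124, 1118 and 1322.

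**Figure D4:**
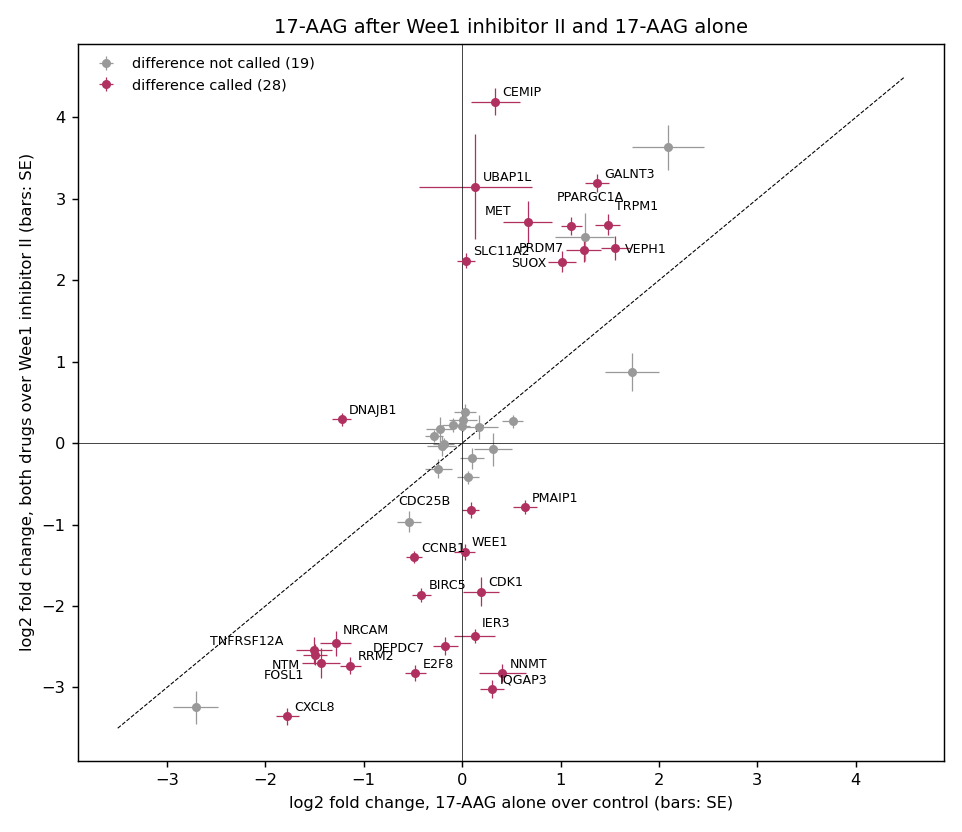
Log2 fold change of 17-AAG after Wee1 inhibitor II (vertical axis) against that of 17-AAG alone over control (horizontal axis) for 47 genes, the 24 of largest change and the genes fixed for drug targets, cell division and apoptosis, with bars of 1 SE; equal effects would lie on the dashed line. The difference passed at an adjusted p under 0.05 in 28 genes (labelled), 11 above and 17 below the line. The 24 were picked by the change on the vertical axis, which is part of that difference.

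Levels in all 4 groups show where the groups with 1 drug stood. BIRC5 had signals of 1842 and 1964 in control, 1371, 1544 and 1370 with 17-AAG, and at most 435 with both drugs, so the combination was the lowest of the 4 groups. RRM2 went from 4522 and 4814 in control to 2055, 2296 and 2020 with 17-AAG, near the inhibitor alone, and to at most 343 with both drugs. MLANA had 6770 and 7331 in control and 8923, 9687 and 9208 with 17-AAG, so the inhibitor alone, at most 3232, was the lowest group. JUN stood at 239 and 225 in control and was highest with the inhibitor alone, and CXCL8 stood at 91.4 and 88.1 in control, within 1.5 times of its signals with both drugs. HSPH1 was at 3137 and 3292 in control, above both drugs, and at 1718, 2263 and 1748 with 17-AAG. MET had 49.9 and 63.7 in control and 86.4, 83.6 and 99.5 with 17-AAG, and was above 300 in the combination.

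**Figure D5:**
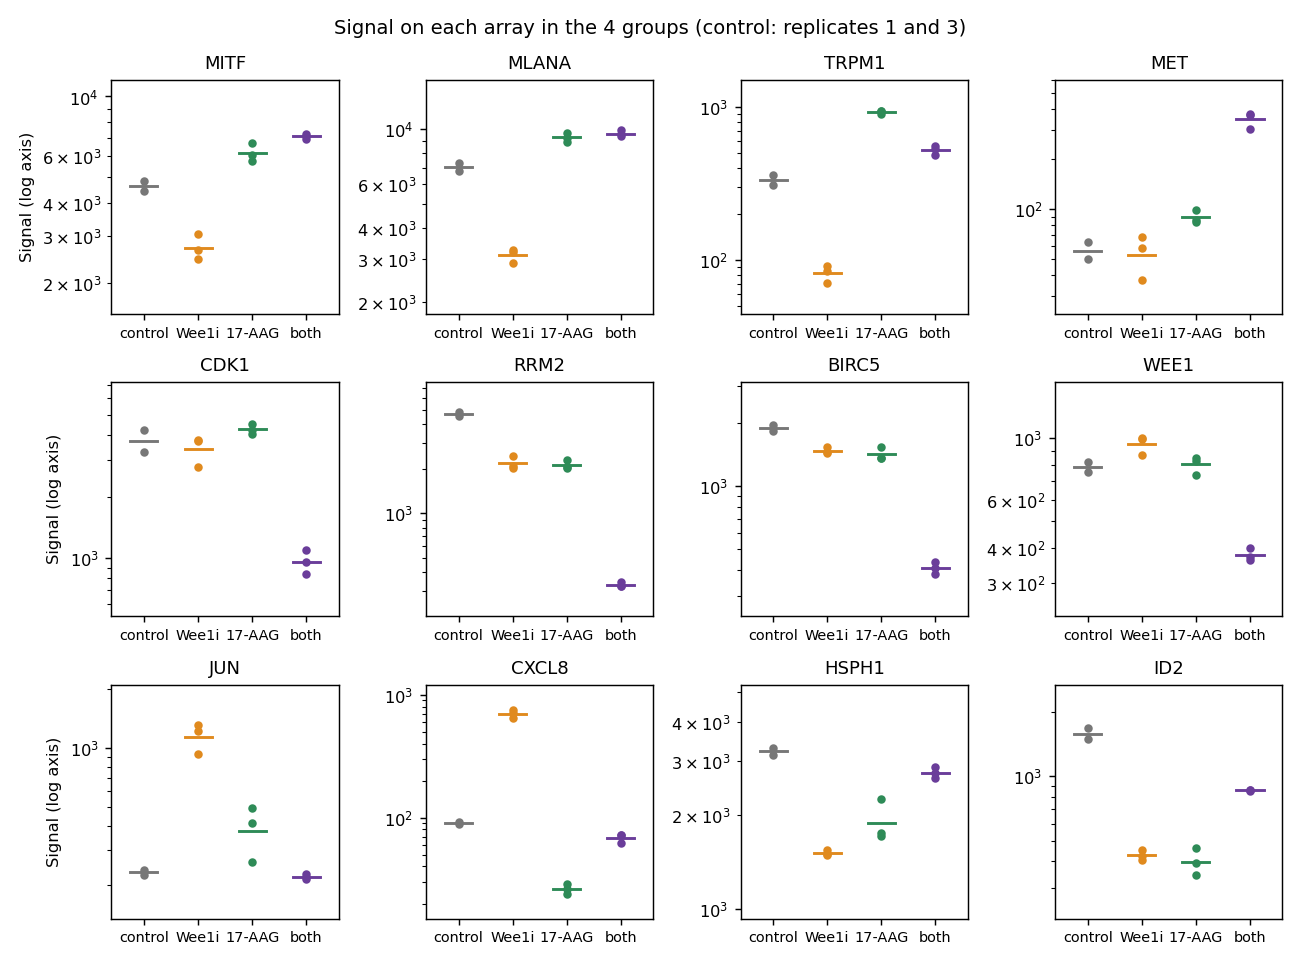
Signal on each array (log axis, 1 point per array, bar at the geometric mean) of 12 genes in the groups control (replicates 1 and 3), Wee1 inhibitor II (Wee1i), 17-AAG and both drugs. CDK1, RRM2, BIRC5 and WEE1 are lowest with both drugs, while MITF, MLANA and TRPM1 are lowest, and JUN and CXCL8 highest, with the inhibitor alone.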

How the data were processed

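RNA (100 ng) was biotin labelled by in vitro transcription from the 3-prime end, per the labels' protocols. The deposited values are linear intensity values, 1 per probe set and array. Partek 6.5 and RMA appear in the submitters' processing notes. The order of steps is not given in the sources used here, and whether RMA made the deposited values is not known. Every array has a 2% trimmed mean of 150.02, so the values were log2 transformed without further normalisation, and detection calls were not used.

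Of 54675 probe sets 41091 carried 1 gene symbol, 1801 several, 11721 none and 62 were array controls. Each of 19775 genes was represented by its probe set of highest mean log2 signal. The 6 arrays were fitted in limma 3.58.1 (R 4.3.3) with moderated statistics on 4 residual degrees of freedom and a prior of 1.08, with Benjamini-Hochberg adjustment across the 19775 genes. Errors of log2 fold changes are the fit's standard errors. The difference between effects was fitted on 11 arrays, without control replicate 2, whose signal the submitters judged weak. The fit was checked on simulated data with planted changes.

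The genes, the 32 lists and the tests were chosen with earlier results of these data known. Named are the 12 largest rises and falls, up to 4 list members with the smallest p, cell type markers, and genes fixed for drug targets, cell division and apoptosis; other names are said to be picked later, or stand in a list as examples. The motif TTTGAA was added after the calls were seen. Lists were given no test. Promoter windows are from RefSeq (GRCh38.p14), and matched 15384 genes, 7344 of them among the 8729. The sterol element TCACNCCAC and the amino acid response element TGATGNAA lay in 1.09% and 2.62% of all windows, and in 0 of 1 risen cholesterol and 2 of 7 called ATF4 target promoters.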

Additional observations from a re-analysis of the deposited data

Results flagged for a closer look

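The effect of 17-AAG after Wee1 inhibitor II differed from that of 17-AAG alone, by limma's test of the difference (adjusted p under 0.05), in 28 of the 47 genes of largest change or of the fixed list. The genes of largest change were picked by their effect after the inhibitor, which is part of this difference. How many of them passed was thus partly set by that choice. Values are the difference on the log2 scale. Below 0 were the cell cycle genes IQGAP3 (-3.33), E2F8 (-2.35), CDK1 (-2.02), RRM2 (-1.59), BIRC5 (-1.45), WEE1 (-1.36), CCNB1 (-0.91) and CDC25B (-0.91). Also below 0 were NNMT (-3.23), IER3 (-2.49), DEPDC7 (-2.32), CXCL8 (-1.58), PMAIP1 (-1.42), FOSL1 (-1.27), NRCAM (-1.17), NTM (-1.11) and TNFRSF12A (-1.04). Above 0 were VEPH1 (0.84), PRDM7 (1.13), TRPM1 (1.20), SUOX (1.22), DNAJB1 (1.52), PPARGC1A (1.56), GALNT3 (1.82), MET (2.05), SLC11A2 (2.20), UBAP1L (3.01) and CEMIP (3.86).

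HOXB13 had a signal of 2087 on control replicate 2, the array that enters no comparison, against at most 10.8 on the 6 arrays compared.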

How the results depend on the processing

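Of 121 genes named from the lists and largest changes and called, 77 kept their call in all 6 fits without 1 array. The 44 others lost it in at least 1 fit, 24 of them in all 6. Without 1 array the counts ran from 543 to 725 in all, from 186 to 301 higher and from 350 to 424 lower, and the difference between effects from 1118 to 1935. In limma 3500 genes had an unadjusted p under 0.05 with all arrays and 2752 to 3013 without 1.

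Against 1632 genes (790 higher, 842 lower), testing only the 8729 genes gave 3755 (2015 and 1740), a trended prior 3449 (1828 and 1621), signals below 32 set to 32 2528 (1319 higher), and all 11 arrays sharing the spread 1243 higher. Averaging the probe sets of each gene gave 697 (283 and 414) of 6193 genes that reached 100. It ended the calls of 43 of the 121 genes. Of the 1632 genes, 656 were called again and 1593 kept their direction, and MT1G was among those that turned (0.087). An adjusted p under 0.01 gave 496 (178 and 318) and a 2-fold minimum 474 (149 and 325). Quantile normalisation (1677), centring (1169), robust priors (1486) and array weights (1692) stayed within 1.5 times. Testing every probe set called 1653 of the 14208 probe sets that reached 100 (11.6%), a count of probe sets and not of genes. In that setting 1048 of the 1632 genes kept their call.

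The replicate numbers gave no clear sign of pairing the arrays. Deviations of arrays with the same number correlated at -0.02, 0.07 and -0.02, and those of arrays with different numbers at -0.04 to 0.07. With the replicate block limma called 0 genes (0 higher and 0 lower), with 2665 at an unadjusted p under 0.05, and the difference between effects passed in 1286. Including control replicate 2 gave 97 in place of 2024.

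With 3 arrays a group, no detection calls and a replicate SD of 1.01 (log2) below a signal of 16, folds that start from such signals are imprecise. Causes of these shifts were not tested.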
